A study of Mus musculus with 16 samples.

Results

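Hyaluronan and the large proteoglycans that aggregate with it were followed in mouse aortic valves as 10 genes, of 20992 rows in the table. They were chosen by function: the proteoglycan core proteins Acan (aggrecan) and Vcan (versican), the link proteins Hapln1 and Hapln3, the hyaluronan synthases Has1, Has2 and Has3, the hyaluronidases Hyal1 and Hyal2, and the hyaluronan receptor Cd44. All 10 had a row, named in capitals in the table (ACAN, VCAN, HAPLN1, HAPLN3, HAS1, HAS2, HAS3, HYAL1, HYAL2, CD44), and 9 of the 10 passed the filter on low values and were tested. Hapln3 did not pass and is given as values.

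Hyaluronan is a long unbranched sugar chain spun out at the cell surface by the synthases. Aggrecan and versican, which carry chondroitin sulfate chains, bind along it through their N-terminal domains, and link proteins clamp that binding, so that the aggregate holds water. In heart valves versican and hyaluronan fill the cushions from which the leaflets form and later the spongiosa, the compressible middle layer of the leaflet, while aggrecan is best known from cartilage.

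RNA from aortic valves of C57BL/6J background mice was sequenced to compare valves exposed to hypertension and to high cholesterol, alone and together. The HC/HT group joined both models (3 libraries, 2 from females), the HC group lacked ApoE (4 libraries, 3 from females), the HT group overexpressed human renin and human angiotensinogen from transgenes (4 libraries, 2 from females), and the CON group carried neither model (4 libraries, 1 from a female). The promoters of the transgenes, the age of the mice and whether a library held valves of more than 1 mouse are not given in the sources used here. A replicate 4 of HC/HT is also labelled, but no column name of the table matched it, so HC/HT is given from 3 libraries. All values below are units, the deposited normalised counts multiplied by a common factor so that the median library total is 1000000, and a deposited 1 equals 0.0980 units.

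The labels and the tissue were checked first. Apoe lay between 2.15 and 12.3 units in the 7 knockout libraries and between 56.6 and 1014 units in the 8 intact ones, a difference of -5.81 on the log2 scale (exact permutation test, two-sided, p = 0.000311). Sex-linked genes matched the labelled sex in 15 of 15 libraries. All 8 valve interstitial and fibroblast markers were present, with summed levels of 4667 to 16255 units, and so were 7 of 7 cardiomyocyte markers, which summed to 158 to 11384 units. Between 16006 and 17608 genes were above 0, and 4 rows took 32.4% to 62.7% of each library. That share was 50.9 ± 4.87% in HC/HT, 41.4 ± 8.86% in HC, 54.4 ± 9.63% in HT and 41.6 ± 11.2% in CON (SD). The median difference of all 15004 tested genes was -0.42 (log2) for HT against CON and -0.30 for hypertensive against normotensive valves, and the members are read against these medians. With libraries rescaled by median-of-ratios factors these medians were both -0.01. HC/HT replicate 2 and HT replicates 2 and 3 correlated least with the other libraries (median Spearman 0.890, 0.895 and 0.893, against a highest of 0.934).

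Vcan and Hapln1 are neighbours on mouse chromosome 13 and point towards each other. In mm10, Hapln1 runs from 89539796 to 89611652 on the plus strand and Vcan from 89655312 to 89742509 on the minus strand, with 43659 bases between their ends. Their promoters, the 250 bases before and 50 after the RefSeq start (GRCm38.p6), are shown because these genes varied together across valves, as described further on. The Vcan window (chr13:89742463-89742762, minus strand) and the Hapln1 window (chr13:89540386-89540685, plus strand) are written 5′ to 3′ with GC boxes in capitals.
Vcan: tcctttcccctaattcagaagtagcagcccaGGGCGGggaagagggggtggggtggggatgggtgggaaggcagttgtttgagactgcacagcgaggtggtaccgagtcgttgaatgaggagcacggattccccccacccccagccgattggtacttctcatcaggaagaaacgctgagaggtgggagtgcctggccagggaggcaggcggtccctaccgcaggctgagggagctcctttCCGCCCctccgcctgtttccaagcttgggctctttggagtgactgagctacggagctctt
Hapln1: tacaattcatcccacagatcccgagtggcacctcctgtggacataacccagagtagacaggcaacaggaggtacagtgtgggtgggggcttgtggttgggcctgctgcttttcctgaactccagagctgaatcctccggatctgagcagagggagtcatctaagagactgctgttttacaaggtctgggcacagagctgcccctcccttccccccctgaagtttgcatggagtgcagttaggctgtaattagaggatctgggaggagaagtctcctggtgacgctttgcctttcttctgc
The capitals mark GGGCGG or its other strand CCGCCC, which begin 219 and 10 bases before the Vcan start. The Hapln1 window held no such run. This window lies inside Hapln1 as placed above, because the RefSeq start used lies downstream of the first base of the Gencode gene. The bases before that first base were not examined. Of 32851 mouse promoter windows of this length, 35.7% held a GC box on either strand. Neither window held the TATA box TATAAA (13.6% of windows), the AP-1 site TGANTCA (7.81%), the E-box CACGTG (7.15%) or the cyclic AMP element TGACGTCA (1.79%), on either strand. GC content was 61% in the Vcan window and 54.3% in the Hapln1 window, with a median of 52.7% over all windows. RefSeq promoters were matched for 8 of the 10 members.

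Per length, versican was by far the most abundant transcript of the group. Vcan averaged 117 ± 40.2 units per kilobase of exon (SD, n = 15 here and for the next values), rank 106 of 17773 rows with a known length. Cd44 averaged 37.4 ± 13.8 units per kilobase and Hapln1 22.5 ± 8.32. The hyaluronidases followed, with Hyal2 at 11.2 ± 4.06 and Hyal1 at 6.54 ± 2.20 units per kilobase. Of the synthases, Has2 averaged 3.58 ± 1.44, Has3 1.42 ± 0.764 and Has1 1.38 ± 0.573 units per kilobase. Acan came low, at 0.415 ± 0.335 units per kilobase (rank 12456), and Hapln3 lowest, listed at 0 in 7 of 15 libraries. This order held library by library for most neighbours. Each gene lay above the next in 13 or more of 15 libraries, except Has3, which lay above Has1 in 8 of 15. Has3 and Has1 therefore had no order beyond their spread.

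**Figure D1:**
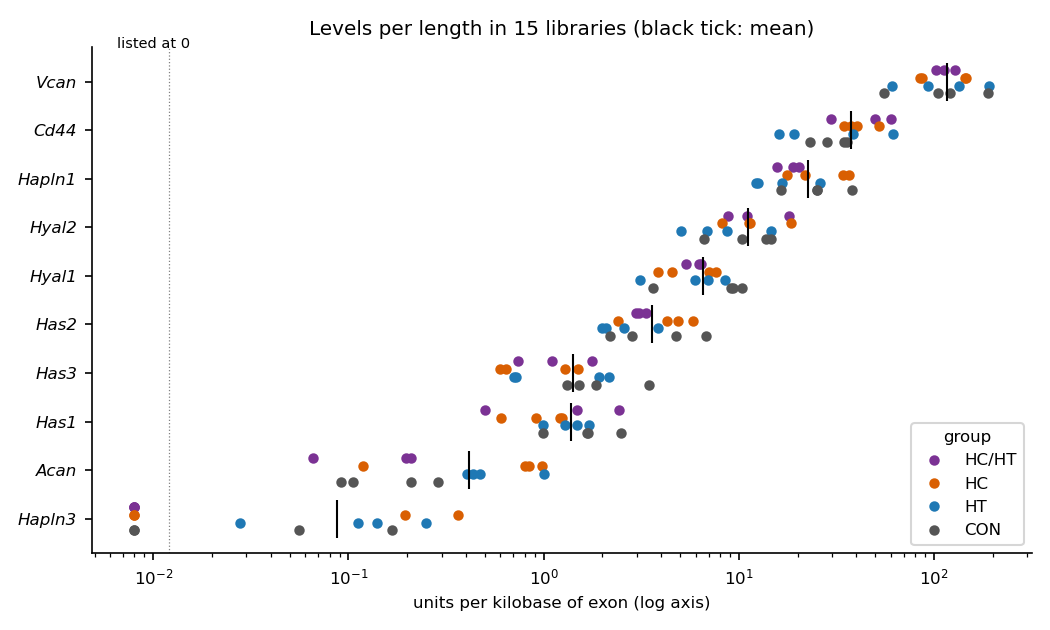
Units per kilobase of exon (log axis) of the 10 genes in 15 libraries, 1 point per library coloured by group, with a black tick at the mean; values listed at 0 stand left of the dotted line. Vcan lies highest, with a mean of 117, and the points of Has3 and Has1 cover the same range.

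No member passed the threshold in any group comparison. The test was limma on log2(units + 1) with group and sex as terms, with p adjusted by Benjamini-Hochberg over 15004 genes and a threshold of 0.05. Of 9 members tested, 0 passed for HC/HT against CON (0.467% of all genes passed), 0 for HC against CON (0.167%) and 0 for HT against CON (0.0%). Likewise 0 passed for HC/HT against HC (0.0%), 0 for HC/HT against HT (0.373%) and 0 for the interaction of both models (0.0%). With groups joined, 0 passed for ApoE knockout against intact valves (1.47%) and 0 for hypertensive against normotensive valves (0.0133%). These comparisons share libraries, CON being the reference of 3 of them. At an unadjusted p under 0.05 the counts were 0 members for HC/HT against CON (11.4% of all genes), 1 for HC against CON (4.01%) and 2 for HT against CON (12.8%). They were 1 for HC/HT against HC (4.41%), 1 for HC/HT against HT (8.71%), 1 for the interaction (1.38%), 0 for knockout against intact (9.84%) and 1 for hypertensive against normotensive (16.7%). All of these were Acan or Hapln1. The median difference of the 9 members was -0.09 for HC/HT against CON, where that of all genes was -0.20. It was -0.15 for HC against CON beside -0.02, and -0.38 for HT against CON beside -0.42.

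**Figure D2:**
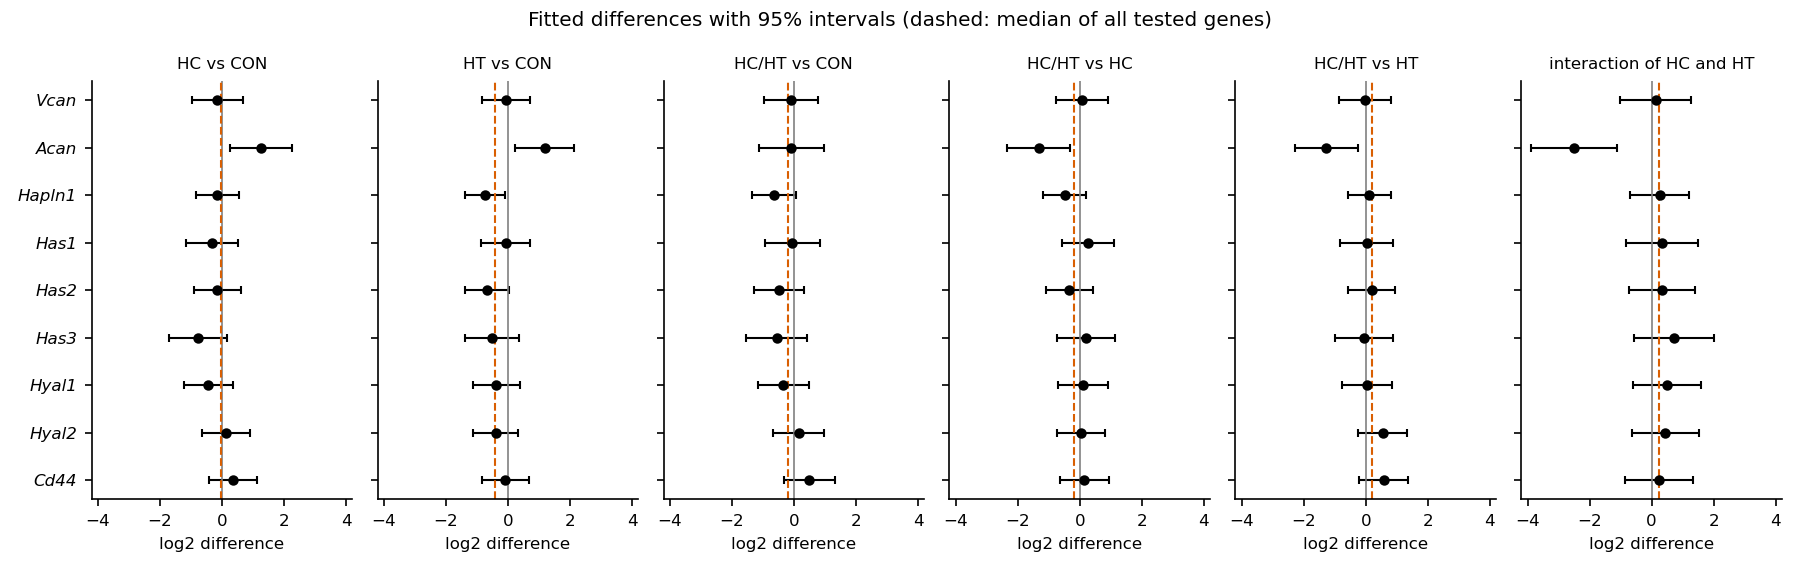
Fitted log2 differences of the 9 tested members with 95% intervals, 1 panel per comparison, with the grey line at 0 and the dashed line at the median of all tested genes. In the panels of HC and HT against CON the Acan intervals lie above 0, and in the interaction panel the Acan interval lies below 0.

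Aggrecan, on chromosome 7 from 79053483 to 79115099 (plus strand), showed the widest swings between groups, at low levels. HC/HT valves had 1.57, 1.47 and 0.490 units of Acan. HC valves had 0.882, 7.35, 5.98 and 6.27 units, HT valves 7.54, 3.23, 3.04 and 3.53 units, and CON valves 0.686, 2.15, 1.57 and 0.784 units. All 4 HT libraries and 3 of 4 HC libraries thus lay above every CON library, HC replicate 1 lay within the CON range, and the 3 HC/HT libraries lay within the CON range or just below it. The fitted Acan level was higher than in CON with each model alone and near it with both, and none of these differences passed the adjustment over all genes. The difference was 1.25 ± 0.49 (SE, log2) for HC against CON (limma adjusted p = 0.845) and 1.19 ± 0.46 for HT against CON (adjusted p = 0.359). It was -0.08 ± 0.51 for HC/HT against CON (adjusted p = 0.974). Set against the single models, HC/HT differed by -1.33 ± 0.49 from HC (adjusted p = 0.984) and by -1.27 ± 0.49 from HT (adjusted p = 0.417). The interaction was -2.51 ± 0.68 (95% interval -3.90 to -1.12, limma adjusted p = 1.00). Over 28 settings of the analysis the interaction lay between -3.28 and -1.38, with unadjusted p between 4.79e-05 and 0.00629 and no adjusted p under 0.714.

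Acan was the only tested member with groups that did not overlap in any of the 5 comparisons of 2 groups. It was 1 of 9 tested members in HT against CON, where 0.0666% of all genes had every HT library above every CON library and 4.21% did not overlap either way. These shares were counted without rescaling, where the median of all genes was -0.42 (log2), which makes genes wholly higher in HT rarer. Acan was also 1 of 9 in HC/HT against HT, where 1.18% of genes lay wholly lower and 6.17% did not overlap. For HC/HT against CON, HC against CON and HC/HT against HC the counts were 0 of 9, with 10.6%, 4.57% and 5.55% of all genes not overlapping. The Acan pattern was the same with median-of-ratios factors, where HT against CON gave 1.52 and HC/HT against HT gave -1.50. The share of all genes without overlap was not counted with these factors. Cartilage markers were looked at beside it. The 6 chondrocyte markers summed to 48.0 to 87.2 units in HC/HT, 47.3 to 114 in HC, 48.0 to 180 in HT and 64.0 to 163 in CON. Their defining gene Col2a1 reached at most 0.392 units in HC/HT, 1.47 in HC, 4.90 in HT and 0.588 in CON. Col11a1, a collagen chain of cartilage, averaged 0.555 ± 0.463 units in HC/HT, 3.31 ± 1.42 in HC, 5.09 ± 3.06 in HT and 4.29 ± 1.27 in CON (SD). Its HC/HT libraries, at 0.196 to 1.08 units, all lay below the HT libraries at 2.64 to 9.502 units. Col11a1 was the 1 of 5 tested chondrocyte markers that passed in HC/HT against HT, where it fell by 1.94 ± 0.44 (SE, log2, limma adjusted p = 0.0472) and the list had a median of -0.82, beside 0.21 for all genes. For the interaction 0 of 5 passed and 2 of 5 had an unadjusted p under 0.05, with a median of -0.82 beside 0.23 for all genes. For HC against CON 1 of 5 was positive, with a list median of -0.42 beside -0.02 for all genes. For HT against CON 2 of 5 were positive (-0.03 beside -0.42), and for HC/HT against CON 0 of 5 (-0.85 beside -0.20). In each of these comparisons with CON 0 of 5 passed. The part of such cells in the Acan levels was not tested. In whole valves fewer cells of a type and less RNA per cell cannot be told apart, here and in all results below.

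**Figure D3:**
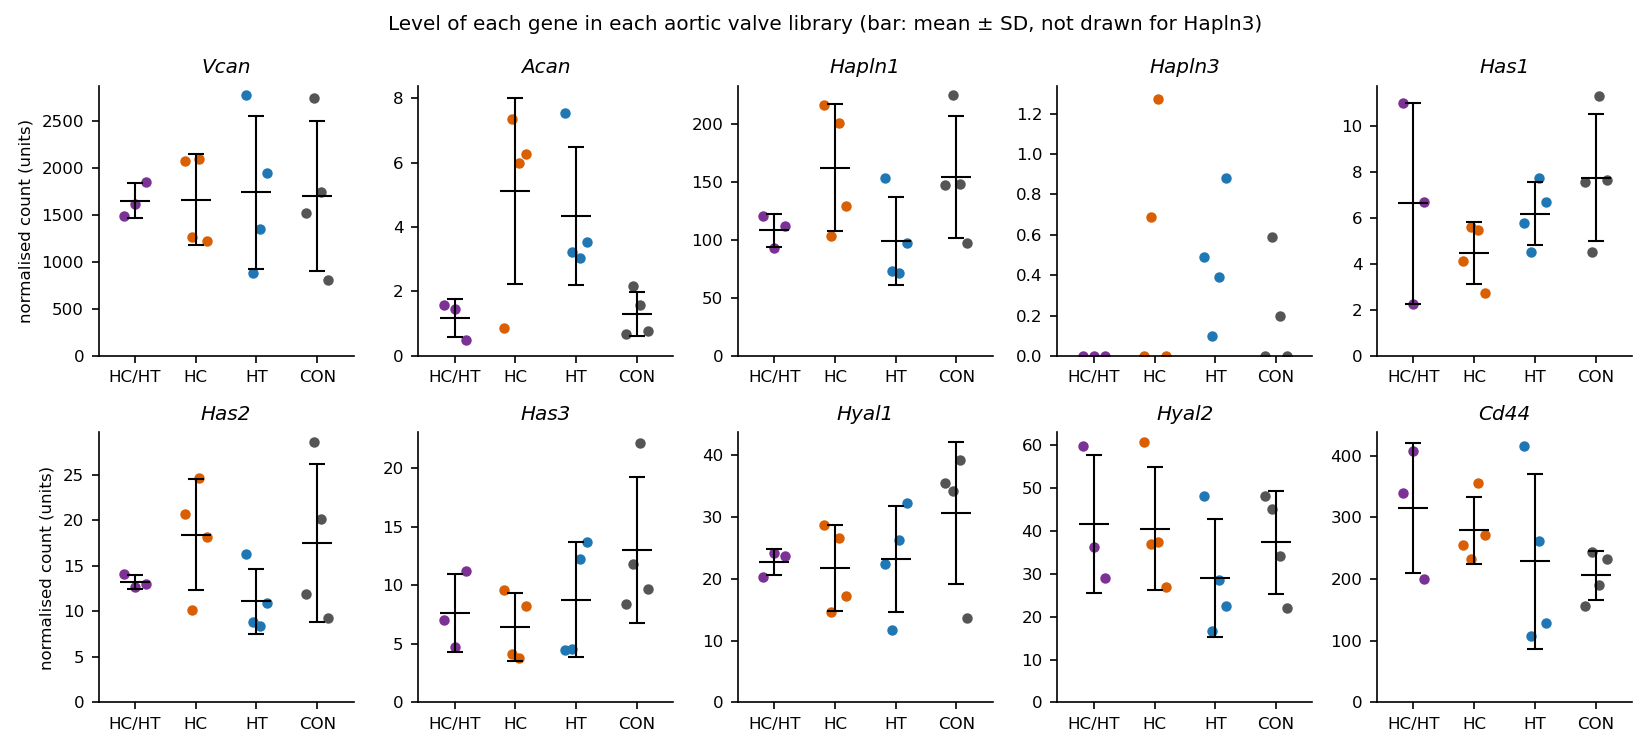
Units of each gene in each library (1 panel per gene, points are libraries by group, bars the mean ± SD, not drawn for Hapln3). In the Acan panel the HT libraries and 3 HC libraries lie at 3.04 units or more, above all HC/HT and CON libraries.

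Versican itself did not separate the groups. Units of Vcan were 1486, 1617 and 1853 in HC/HT valves, 2078, 1262, 2097 and 1221 in HC valves, 2774, 885, 1354 and 1949 in HT valves, and 1522, 2744, 1744 and 803 in CON valves. The CON and HT ranges each spanned more than those of the other groups, and all groups overlapped. The differences were -0.09 ± 0.42 (SE, log2) for HC/HT against CON, -0.15 ± 0.40 for HC against CON and -0.06 ± 0.38 for HT against CON. The 95% interval for HC/HT against CON allowed folds of 0.517 to 1.72, so a change within that range was not detectable. Set against Vcan in the same library, Acan averaged 0.0743 ± 0.0421 units per 100 units of Vcan in HC/HT, 0.356 ± 0.244 in HC, 0.261 ± 0.0790 in HT and 0.0778 ± 0.0232 in CON (SD). Vcan transcripts are spliced into isoforms that differ in their chondroitin sulfate regions, which gene-level counts do not separate.

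Hapln1, which encodes the link protein that stabilises versican on hyaluronan in the developing heart, was lower in the hypertensive groups without passing the test. HC/HT valves had 121, 92.9 and 112 units of Hapln1, HC valves 217, 104, 201 and 129, HT valves 153, 73.8, 72.0 and 97.7, and CON valves 148, 225, 148 and 97.5. The groups overlapped, and 5 of 8 normotensive libraries lay below HT replicate 1, the highest hypertensive one. Hypertensive valves differed from normotensive ones by -0.62 ± 0.23 (SE, log2, limma adjusted p = 0.209), beside a median of -0.30 over all genes. HT differed from CON by -0.75 ± 0.32 (adjusted p = 0.371) and HC/HT from CON by -0.63 ± 0.35 (adjusted p = 0.524). With median-of-ratios factors the hypertensive difference was -0.29 (adjusted p = 0.540), and with limma array weights, where 2089 genes were called, it passed at -0.72 (adjusted p = 0.0219). Interstitial and fibroblast markers, 8 of 8 above 0, summed to 5425 to 8126 units in HC/HT, 5780 to 15433 in HC, 4667 to 12933 in HT and 6387 to 16255 in CON. For hypertensive against normotensive valves 0 of 8 were positive, with a list median of -0.72 beside -0.30 for all genes. In that comparison 0 of 8 passed and 5 of 8 had an unadjusted p under 0.05 (16.7% of all genes). Their part in the Hapln1 levels was not tested.

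Measured against versican in the same library, the link protein transcript separated most hypertensive from most normotensive valves. Per 100 units of Vcan there were 8.12, 5.74 and 6.04 units of Hapln1 in HC/HT, 10.4, 8.23, 9.57 and 10.6 in HC, 5.53, 8.33, 5.32 and 5.01 in HT, and 9.71, 8.20, 8.51 and 12.1 in CON. HC/HT averaged 6.63 ± 1.30, HC 9.70 ± 1.08, HT 6.05 ± 1.54 and CON 9.64 ± 1.79 (SD). HT replicate 2, at 8.33, was the only hypertensive library inside the normotensive range, which began at 8.20 in CON replicate 2. A ratio within a library does not change with its scaling. This ratio was formed after the values were known and is given with no test.

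Within groups the neighbours varied together. After group means were taken off, Vcan and Hapln1 correlated at Pearson r = 0.898 and Spearman rho = 0.904 over 15 libraries. The permutation p was 1e-05 for each, the smallest that 100000 resamples can give, and 3e-05 when adjusted over the 3 neighbouring pairs examined. With median-of-ratios factors r was 0.689 and rho 0.661 (permutation test, adjusted p = 0.0121 and 0.0257), lower than before but still past the threshold. The relation was not particular to neighbours. With the same factors Has2, on chromosome 15, correlated with Hapln1 at r = 0.845 and with Vcan at 0.671. Without CON replicates 4 and 2, the libraries farthest from the median of Vcan, r was 0.853 and rho 0.857. Sex means taken off as well left r at 0.887. Groups of 3 or 4 libraries are too small for a correlation within each.

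**Figure D4:**
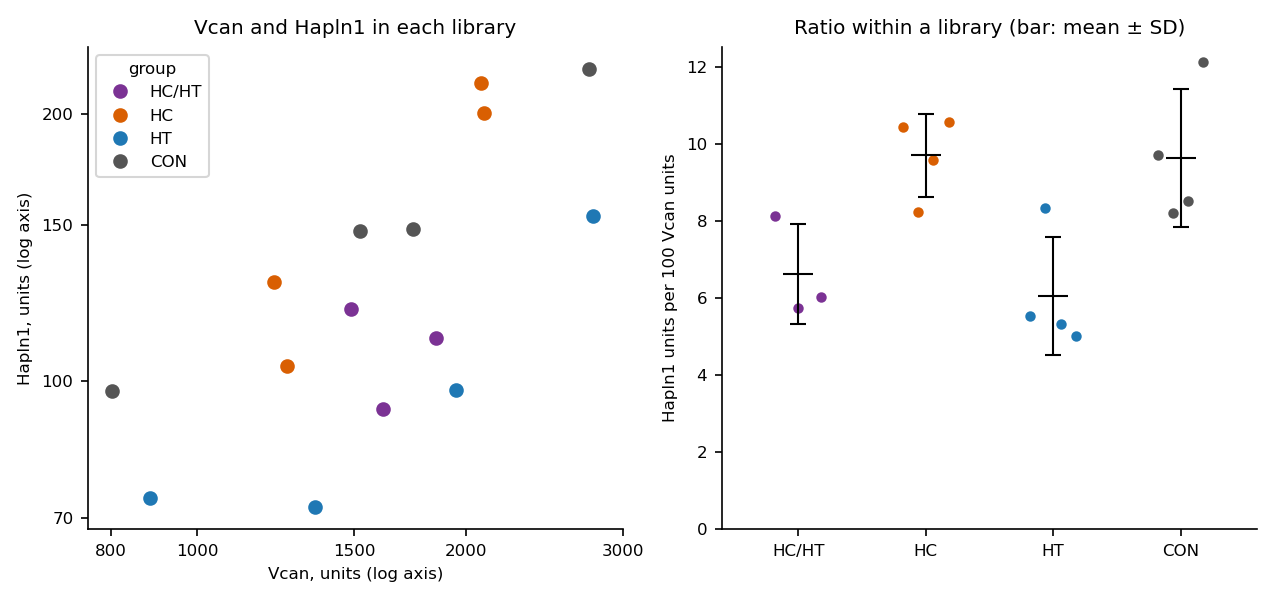
Left, Hapln1 against Vcan in units (log axes), 1 point per library coloured by group; right, Hapln1 units per 100 units of Vcan by group with mean ± SD. The HC/HT and HT points lie below those of HC and CON at a like Vcan level, except HT replicate 2 at 8.33 and HC/HT replicate 1 at 8.12, which lie close to them.

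The other neighbouring pairs did not hold up in this way. Acan and Hapln3 end 2 bases apart on chromosome 7, tail to tail, and whether counting used the strand is not given, so reads near that junction could fall to either gene. Hapln3 had 0, 0 and 0 units in HC/HT, 0, 0.686, 1.27 and 0 in HC, 0.490, 0.0980, 0.392 and 0.882 in HT, and 0, 0.588, 0.196 and 0 in CON. All 4 HT libraries had a value above 0, all 3 HC/HT libraries were listed at 0, and the other groups were mixed. HT replicate 2, at 0.0980 units, held a deposited 1, so the separation of HC/HT from HT rests on that value. Of all tested genes, 1.18% lay wholly lower in HC/HT than in HT, and Hapln3 was not among those tested. Acan and Hapln3 correlated at r = 0.517 (permutation test, adjusted p = 0.0468) and rho = 0.562 (adjusted p = 0.0462). With median-of-ratios factors r was 0.298 (adjusted p = 0.424), and without HC replicate 1 and HC/HT replicate 3 it was 0.351 (adjusted p = 0.357). Without HC replicate 1 alone r was 0.311 (adjusted p = 0.28), and without HC/HT replicate 3 alone 0.539 (adjusted p = 0.0453). The relation thus depended on single libraries, HC replicate 1 most, and on the scaling. Hyal2 and Hyal1 lie 4147 bases apart on chromosome 9 on the same strand. They correlated at r = 0.529 (permutation test, adjusted p = 0.0468) but rho = 0.379 (adjusted p = 0.165). Without CON replicate 4 and HT replicate 2 r was -0.00595, and with median-of-ratios factors 0.0283, so this relation did not hold.

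Among the synthases, Has2, the enzyme needed for hyaluronan in the embryonic mouse heart, gave most of the transcript. Per length it was the highest of the 3 in 15 of 15 libraries, with a share of 55.9 ± 13.1% (SD, range 35.4% to 76.3%). The share was 56.0 ± 12.8% in HC/HT, 67.1 ± 8.36% in HC, 49.4 ± 13.7% in HT and 51.0 ± 13.3% in CON, and the group ranges overlapped. HC/HT valves had 14.1, 12.6 and 13.0 units of Has2, HC valves 20.7, 10.2, 24.7 and 18.1, HT valves 16.3, 8.82, 8.42 and 10.9, and CON valves 11.95, 28.6, 20.2 and 9.31. No group stood apart, and hypertensive against normotensive valves differed by -0.51 ± 0.26 (SE, log2, limma adjusted p = 0.310). Has1 ranged from 2.25 to 11.3 units and Has3 from 3.82 to 22.1 units over the 15 libraries. Has3 was at -0.77 ± 0.45 for HC against CON (adjusted p = 1.00), the largest synthase difference between groups in size.

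The Has2 share was also higher in females. Has2 held 65.3 ± 9.10% of synthase transcript in the 8 females and 45.0 ± 6.75% in the 7 males (SD). In each of the 4 groups every female library lay above every male one, though in HC/HT by little, with 70.7% and 48.7% in females and 48.5% in the male. Has1 held 16.5 ± 6.46% in females and 28.8 ± 4.24% in males, and Has3 18.2 ± 6.04% and 26.2 ± 8.32%. In the sex term of the fit, female against male, Has1 differed by -0.69 ± 0.30 (SE, log2), Has2 by 0.55 ± 0.28 and Has3 by -0.28 ± 0.34. By limma 0 of 9 members passed (0.04% of all genes), with an adjusted p of 1.00 for each. Has1 alone, 1 of 9, had an unadjusted p under 0.05 (2.45% of all genes). Sex was looked at after the values were seen, and the shares are given with no test. The groups hold unequal numbers of females, so the HC share, from 3 females and 1 male, cannot be set beside the CON share, from 1 female and 3 males, without this.

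**Figure D5:**
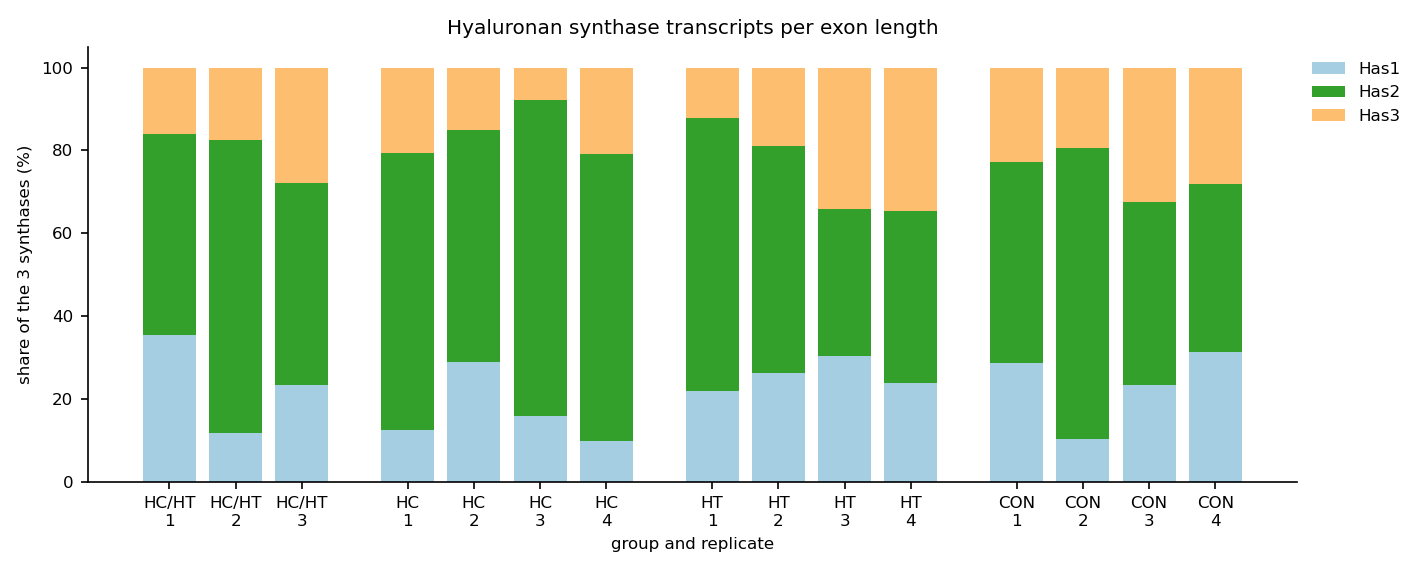
Stacked bars give the share (%) of Has1, Has2 and Has3 in their summed units per kilobase, 1 bar per library, ordered by group. Has2 is the largest part of every bar, from 35.4% to 76.3%.

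The hyaluronidases cleave hyaluronan, Hyal2 at the cell surface and Hyal1 in the lysosome. HC/HT valves had 59.8, 36.3 and 29.0 units of Hyal2, HC valves 60.7, 37.0, 37.4 and 26.9, HT valves 48.3, 16.7, 28.6 and 22.5, and CON valves 48.3, 45.2, 34.1 and 21.9. Hyal1 had 20.3, 24.2 and 23.6 units in HC/HT, 28.7, 14.6, 26.5 and 17.2 in HC, 22.4, 11.8, 26.3 and 32.2 in HT, and 35.5, 34.3, 39.2 and 13.7 in CON. For both genes the groups overlapped. Units of Hyal2 per unit of Hyal1 averaged 1.89 ± 0.923 in HC/HT, 1.91 ± 0.519 in HC, 1.34 ± 0.617 in HT and 1.29 ± 0.305 in CON. The knockout valves thus had the higher mean ratio, with overlapping ranges. Knockout against intact valves differed by 0.33 ± 0.28 (SE, log2) in Hyal2 and by -0.20 ± 0.28 in Hyal1 (limma adjusted p = 0.810 and 0.909). Hyal1 shares 893 bases with Hyal3 on the same strand, so reads there could be counted for either.

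Cd44, the main cell surface receptor for hyaluronan and abundant on leukocytes, had its highest mean in HC/HT. Libraries of HC/HT valves had 339, 407 and 201 units, HC valves 255, 233, 356 and 272, HT valves 416, 108, 262 and 129, and CON valves 156, 243, 191 and 233. HT held both the highest and the lowest library, and all groups overlapped. Knockout against intact valves differed by 0.47 ± 0.28 (SE, log2, limma adjusted p = 0.673), and HC/HT against CON by 0.50 ± 0.40 (adjusted p = 0.707, folds of 0.800 to 2.51 in the 95% interval). The 8 macrophage markers, none of them at 0 in all libraries, summed to 1730 to 2550 units in HC/HT, 1945 to 3740 in HC, 137 to 1328 in HT and 821 to 1361 in CON. For knockout against intact valves 8 of 8 were positive and 3 of 8 passed, where 1.47% of all genes passed. Their part in the Cd44 levels was not tested.

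Across libraries, the members followed each other and other genes to differing degrees, described here with median-of-ratios factors and no test. With group means taken off, Hapln1 and Has2 correlated at r = 0.845 over 15 libraries, Vcan and Has2 at 0.671, and Vcan and Has1 at -0.457. The most alike genes were then sought with group means left in, and with members and predicted or unnamed transcripts left out. Of the remaining tested genes, those most like Vcan over the 15 libraries were Cadps (r = 0.852), Fzd1 (0.806) and Col16a1 (0.789). Most like Hapln1 were Colgalt2 (0.787), Tspyl3 (0.783) and Glrb (0.771). Most like Has2 were Sf3b3 (0.805), Erich1 (0.790) and Ddx3x (0.789). Most like Cd44 were Tlr4 (0.895), a receptor of innate immune cells, Il2rg (0.892), the shared cytokine receptor chain of lymphocytes, and Adipor1 (0.882). Hyal1 was most like Unc13c (0.891), Zfp57 (0.861) and Magi1 (0.827), and Hyal2 most like Phlda3 (0.858), Endod1 (0.856) and Arl2bp (0.854). These points share the 15 libraries and their group differences.

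Genes around the members were read as lists, and 3 genes of them passed a test. Lyve1, a hyaluronan receptor of lymphatic vessels and of some tissue macrophages, was lowest where both models met. Levels in HC/HT valves were 0.392, 0.980 and 1.76 units, in HC valves 20.7, 20.4, 17.0 and 2.55, in HT valves 11.1, 21.4, 3.23 and 5.98, and in CON valves 29.5, 33.5, 43.7 and 54.0. All 3 HC/HT libraries lay below every other library, and all HC and HT libraries lay below every CON library. Of all genes, 10.6% did not overlap in HC/HT against CON, 4.57% in HC against CON and 4.21% in HT against CON. Lyve1 fell by 4.50 ± 0.61 (SE, log2) in HC/HT against CON (limma adjusted p = 0.00129) and by 2.06 ± 0.42 in knockout against intact valves (adjusted p = 0.0137). The hypertensive difference was -2.44 ± 0.40 (adjusted p = 0.0441) and did not pass with median-of-ratios factors (-2.13, adjusted p = 0.207). Lyve1 was the 1 of 15 tested receptors and binding proteins that passed for HC/HT against CON (0.467% of all genes), and 0 of 15 passed upwards. The median difference of that list was -0.23, beside -0.20 for all genes.

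The Lyve1 calls leaned on single libraries to differing degrees. For HC/HT against CON the adjusted p was 0.0504 without HC/HT replicate 1, where Lyve1 was at -4.30, and the call held without each other library. The knockout call was lost without HT replicate 2 (adjusted p = 0.0706), HC/HT replicate 1 (0.114) or HC/HT replicate 2 (0.0525), and without the 3 libraries that correlated least (-1.92, adjusted p = 0.129). The hypertensive difference missed the threshold when any of HC/HT replicates 1 and 2, HC replicates 1 and 3, HT replicate 3 and CON replicates 1, 2 and 3 was left out, with adjusted p of 0.0561 to 0.236. In every such fit Lyve1 stayed lower in the hypertensive or knockout valves. The 8 macrophage markers summed to 1730 to 2550 units in HC/HT and 821 to 1361 units in CON, and Lyz2 alone averaged 1453 units in HC/HT and 599.8 units in CON. Of the 8, 5 had a positive difference for HC/HT against CON and 0 of 8 passed, with 2 of 8 at an unadjusted p under 0.05. Mrc1 ran the other way, with 68.2 to 96.3 units in HC/HT and 106 to 213 units in CON. For knockout against intact valves 8 of 8 macrophage markers were positive and 3 of 8 passed. The part of such cells in the Lyve1 levels was not tested.

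Gusb encodes beta-glucuronidase, a lysosomal enzyme that trims the ends of hyaluronan fragments. In HC/HT valves Gusb had 77.97, 69.1 and 49.6 units, HC valves 81.9, 76.7, 87.2 and 69.8, HT valves 44.8, 20.1, 25.2 and 36.7, and CON valves 60.2, 43.8, 39.5 and 19.3. The HC libraries lay above all HT and CON libraries, and HC/HT replicate 3 lay below CON replicate 1. Of all genes, 4.57% did not overlap in HC against CON, and the share for HC against HT was not counted. Gusb rose by 1.06 ± 0.26 (SE, log2) in knockout against intact valves (limma adjusted p = 0.0302), the 1 of 6 tested degradation and salvage genes that passed (1.47% of all genes). The list had a median of 0.89, beside 0.09 for all genes. Without HT replicate 2 the Gusb difference was 0.91 (adjusted p = 0.179), and it also missed the threshold without CON replicate 2, HC replicate 2, HC replicate 3, HC/HT replicate 1 or HC/HT replicate 2, with adjusted p of 0.0699, 0.0901, 0.0614, 0.194 and 0.0748. Without the 3 libraries that correlated least it was 0.82 (adjusted p = 0.446). The macrophage marker ranges given beside Cd44 also differed between knockout and intact valves. In this comparison 8 of 8 macrophage markers were positive and 3 of 8 passed, with a list median of 1.27. Of the tested T cell markers 5 of 5 were positive and 2 of 5 passed. The part of these cells in the Gusb levels was not tested.

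Tnc encodes tenascin-C, a matrix protein that lecticans bind. Tnc stood at 13.9, 11.95 and 11.1 units in HC/HT valves, and HC valves had 29.2, 43.9, 49.6 and 25.3, HT valves 26.3, 6.17, 6.56 and 9.99, and CON valves 3.82, 14.0, 7.74 and 3.43. All HC libraries lay above all CON and HC/HT libraries, where 4.57% and 5.55% of all genes did not overlap with HC. Tnc rose by 2.14 ± 0.45 (SE, log2) in HC against CON (limma adjusted p = 0.0334), the 1 of 5 tested lectican binding partners that passed (0.167% of all genes). That list had a median of 0.22, beside -0.02 for all genes. Without HC replicate 2 the Tnc difference was 1.77 (adjusted p = 0.508), and without CON replicate 1, CON replicate 4 or HC replicate 3 the adjusted p was 0.0964, 0.105 and 0.145. The smooth muscle markers summed to 74.7 to 546 units in HC and 149 to 2580 units in CON, with a list median of -1.98 and 0 of 6 positive. The macrophage list had a median of 0.98 with 7 of 8 positive. In these lists 0 of 6 and 0 of 8 passed, and 1 of 6 and 3 of 8 had an unadjusted p under 0.05. Their part in the Tnc levels was not tested.

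The lists of chondroitin sulfate synthesis, proteases, precursor supply and other lecticans and link proteins gave no gene past the threshold in any comparison. Of 23 tested genes of chondroitin sulfate chain synthesis, the lowest p belonged to Papss2, which makes the sulfate donor, at -1.52 ± 0.43 (SE, log2) for HC/HT against CON (limma adjusted p = 0.138). Papss2 averaged 54.9 ± 10.8 units in HC/HT and 157 ± 61.3 in CON (SD). Csgalnact1, which starts the chain, was at -1.07 ± 0.36 in the same comparison (adjusted p = 0.216). Of 7 proteases that cut aggrecan or versican, Adamts15 averaged 11.0 ± 3.29 units in HT and 35.4 ± 14.0 in CON (-1.60 ± 0.44, adjusted p = 0.351). Adamts5, the main aggrecanase of mouse cartilage, averaged 53.1 ± 12.1 units in HC/HT and 106 ± 29.6 in HC (-0.95 ± 0.34, adjusted p = 0.984). Of 10 genes supplying hyaluronan precursors, Slc35d2, a nucleotide sugar transporter, was at -0.81 ± 0.46 for HT against CON (adjusted p = 0.414). Of the 4 other lecticans and link proteins only Bcan, the brain lectican brevican, was tested, at -0.84 ± 0.45 for HC/HT against CON (adjusted p = 0.496).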

How the data were processed

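RNA of 15 aortic valve libraries (3 HC/HT, 4 HC, 4 HT, 4 CON) was analysed. Per the labels' protocols, total RNA was isolated with Trizol and RNeasy columns and treated with DNase, cDNA was amplified with the Nugen Ovation system from 1 ng, and KAPA hyper prep reagents gave the sequencing libraries. Bowtie 1.0.1, SAMtools 0.1.9, FastQC 0.11.2, edgeR with no version and the build mm10 are listed in the submitters' processing notes. The deposited values are a score: whole numbers, read as the authors' normalised counts, with a normalisation step not given in the sources used here. Their totals lie between 10207928 and 10210305, so the depth of each library is unknown and no counting interval is given. 1 column with no name in its header could not be mapped to a sample and was not used, and HC/HT replicate 4, which the labels list, was not analysed here.

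Values were multiplied by 1 common factor, 0.0979537. The 15004 genes that reached 1 unit in 4 libraries or more were tested with limma 3.58.1 (R 4.3.3; lmFit, contrasts.fit, eBayes with trend and robust) on log2(value + 1). Group and sex were terms of 1 fit, two-sided, with Benjamini-Hochberg adjustment over all tested genes. The pseudocount of 1 understates folds of low genes such as Acan. The script was tested on simulated data. Correlations used 100000 permutations, two-sided, in Python 3.11.15 with scipy 1.17.1. Symbols, positions and exon lengths came from Gencode (GRCm38, the build mm10), and promoters from RefSeq.

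Named were all members, each list gene that passed in any comparison, for lists with none the 2 tested genes with the smallest p in the 6 group comparisons, and for members averaging at least 10 units the 3 genes most like them. Members and predicted or unnamed transcripts were left out of the search for those 3. 1 gene that this rule names is not reported here. Members and lists were chosen with earlier results of these data known. Alternatives were quantile and median-of-ratios scaling, pseudocounts 0.25 and 4, no filter and a filter at 5 units, no sex term, a replicate block, eBayes without trend and robust, array weights, fits on only the compared groups, a threshold of 0.1, omission of the 3 libraries that correlated least, and of each library in turn. Alternatives for Lyve1, Gusb and Tnc, and the look at sex, were added after seeing the data. The labels do not say that libraries came from separate mice, so p-values measure the spread between these samples. No protein sequence was used here.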

Additional observations from a re-analysis of the deposited data

Results flagged for a closer look

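Of 42 groups of 4 libraries examined (HC, HT and CON, for the 10 members, Apoe, Lyve1, Gusb and Tnc), 1 held a library far from the rest. Acan in HT replicate 1 was at 7.54 units, against 3.04 to 3.53 units in the other 3 HT libraries, and its gap was 0.891 of the range of the group, above the critical value of 0.829 for 4 libraries. Chance gives such a library in about 1 of 20 groups. It was the highest HT library, so leaving it out could not change that Acan in HT lay above every CON library.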

How the results depend on the processing

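Members called were 0 under every alternative run, except that limma array weights called 1 member, Hapln1, in hypertensive against normotensive valves. Of 1646 uncalled member values under alternatives, 171 had another sign than the main value. The correlation of Vcan and Hapln1 passed under every alternative, with r of 0.865 to 0.922 when 1 library was left out. The correlation of Acan and Hapln3 missed the threshold with median-of-ratios factors (0.298), quantile normalisation (0.321), pseudocount 4 (0.471) and without the 2 farthest libraries (0.351), and ranged from 0.311 (without HC replicate 1) to 0.713 (without HC replicate 4) with 1 library left out. That of Hyal1 and Hyal2 missed it with median-of-ratios factors (0.0283), quantile normalisation (0.0684), pseudocount 4 (0.517) and group means not taken off (0.462), turned to -0.00595 without the 2 farthest libraries, and ranged from 0.350 (without CON replicate 4) to 0.635 (without HT replicate 4). Of 22 alternatives, the Acan and Hapln3 correlation passed in 7 and that of Hyal1 and Hyal2 in 6. Most omissions of 1 library also took each of these below the threshold. The cause was not tested.

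Genes called numbered 70 for HC/HT against CON (7 to 726 over alternatives), 25 for HC against CON (8 to 316), 0 for HT against CON (0 to 412), 0 for HC/HT against HC (0 to 3), 56 for HC/HT against HT (6 to 260), 220 for knockout (45 to 479) and 2 for hypertensive valves (0 to 2089), so the background shares depend on the setting. Lyve1 in HC/HT against CON was lost in 1 alternative, without HC/HT replicate 1 (adjusted p = 0.0504). Its knockout call was lost in 4, its hypertensive call in 14, the Gusb call in 9 and the Tnc call in 8.

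The labels do not say whether replicate numbers pair the samples. Deviations of same-numbered libraries correlated at -0.125 to 0.275, over 0.1 in 8 of 21 pairs. Libraries with unlike numbers were not examined in this way, so these values cannot decide it. With the replicate block 0 members were called in any comparison, and genes called were 222 for HC/HT against CON, 42 for HC against CON, 1 for HT against CON, 1 for HC/HT against HC, 138 for HC/HT against HT, 339 for knockout and 768 for hypertensive valves. Unknown depth limits the low genes Acan and Hapln3 most.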
